A study of Mus musculus with 3 samples.

Results

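Heat shock proteins and J-domain chaperones were examined as a family in c2c12 cells, an immortalized mouse myoblast line, after 2 days in myogenic induction medium. The members were taken by gene symbol, as the Hspa, Hspb and Hsp90 genes, Hsph1, Hspd1 and Hspe1, the Dnaja, Dnajb and Dnajc genes, the alpha B-crystallin gene Cryab, the cochaperone gene Bag3 and the heat shock factor genes Hsf1 and Hsf2, leaving out Hspa5, Dnajb9 and Dnajc3, which answer mainly to stress of the endoplasmic reticulum. This gave 73 of the 23238 symbols counted, of which 64 reached a CPM (counts scaled to a library of fixed size) of 1 in at least 1 library, the minimum for a comparison. The other 9 (Dnajb3, Dnajb7, Dnajb8, Dnajb13, Dnajc5b, Dnajc5g, Dnajc6, Dnajc22 and Hspb9) stayed at or under 0.519 CPM and 1 of them, Dnajc5g, had no count in any library. Following the grouping of interest, the 7 small heat shock protein genes of muscle (Hspb1, Hspb2, Hspb3, Cryab, Hspb6, Hspb7 and Hspb8) were set against the other 66, of which 57 were tested.

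The cells were grown on 3 substrates, with 1 RNA-seq library each. These were a tissue culture plate (TCP), a hydrogel of methacrylated gelatin (GelMA) at 15%, and the same hydrogel carrying 1% poly(sodium 4-styrenesulfonate) (GelMA-PSS), a sulfonated polymer that mimics heparin. All cells came from the same line, were seeded in growth medium with fetal bovine serum and were then moved to medium with horse serum, so none of the groups is an undifferentiated control. The question put to the comparison was how a heparin-mimicking surface alters differentiating myoblasts. Libraries held 119799095 (TCP), 87071144 (GelMA) and 192171443 (GelMA-PSS) counts. Because each substrate is a single library, no p-value, standard deviation or count of significant genes can be given; each interval below is a 95% exact interval of the counts and covers counting error only, not the spread between cultures.

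Chaperones of this family keep other proteins folded. Hsp70 proteins (Hspa genes) bind exposed stretches of a client in an ATP-driven cycle, J-domain proteins (Dnaj genes) bring clients to Hsp70 and trigger its ATPase, and Hsp110 (Hsph1) and BAG proteins reset it by nucleotide exchange. Hsp90 takes over late folding steps of kinases and receptors, and the chaperonin of Hspd1 and Hspe1 encloses clients in the mitochondrial matrix. Small heat shock proteins need no ATP: they hold unfolding clients, and in striated muscle they are abundant at the Z-disc and along desmin filaments, where contraction strains proteins. Many of these genes answer to Hsf1, which binds heat shock elements, arrays of the 5-base unit NGAAN in alternating orientation.

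The promoter stretches of 3 members are given because the results turn on these genes: Hspb1 and Hspe1, which are known to be heat-inducible and whose levels were highest on GelMA-PSS, and Hspb7, which was lowest there. The sequences come from RefSeq on GRCm38.p6 and run 5′ to 3′ on the strand of the gene. For Hspb1 (chr5:135887669-135887918, plus strand) the 250 bases before the start site are shown, and capitals mark 2 facing pairs of heat shock units (GAANNTTC or TTCNNGAA), whose first bases lie 117 and 97 bases before the start. For Hspe1 (chr1:55088050-55088079, plus strand) 30 bases are shown, with 3 overlapping pairs that run unbroken from 89 to 72 bases before its start. For Hspb7 (chr4:141420529-141420778, plus strand) the 250 bases before the start hold no such pair, and capitals mark its 1 E-box (CANNTG), the motif that myogenic factors such as MyoD bind. An E-box does not set Hspb7 apart from the other 2 genes. Hspb1 has E-boxes that begin 138 and 109 bases before its start, left unmarked in its stretch. Hspe1 has 1 that begins 43 bases before its start, outside the bases shown.
Hspb1: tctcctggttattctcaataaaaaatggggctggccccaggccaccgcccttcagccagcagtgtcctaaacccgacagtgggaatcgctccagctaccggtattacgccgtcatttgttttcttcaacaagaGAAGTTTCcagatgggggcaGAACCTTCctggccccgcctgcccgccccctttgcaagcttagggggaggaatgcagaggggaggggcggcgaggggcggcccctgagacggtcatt
Hspe1: cacggtccgTTCTAGAACCTTCCGGAAggc
Hspb7: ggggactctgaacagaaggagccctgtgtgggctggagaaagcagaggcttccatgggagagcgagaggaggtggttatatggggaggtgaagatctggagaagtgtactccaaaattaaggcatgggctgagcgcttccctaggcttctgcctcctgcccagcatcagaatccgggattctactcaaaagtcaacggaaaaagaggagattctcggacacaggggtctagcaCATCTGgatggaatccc

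Of the 73 members, 57 had a promoter in the RefSeq table. A facing pair of heat shock units within 250 bases before a start site was present in 14 of them (24.6%), against 14.5% of the 27025 symbols with a promoter, counting both strands since each pair reads the same on either. These 14 were Dnaja1, Dnaja4, Dnajb4, Dnajb6, Dnajc10, Dnajc27, Hspa1a, Hspa1b, Hspb1, Hspb3, Hspb6, Hspd1, Hspe1 and Hsph1. The form with 3 joined units (GAANNTTCNNGAA or TTCNNGAANNTTC) was present in Dnajb6, Hspd1 and Hspe1, which is 5.26% of members against 0.514% of symbols. Hspd1 and Hspe1 are transcribed away from each other and the same array lies before the start of Hspe1 and before 1 of the 2 starts listed for Hspd1, and downstream of the other. An E-box was present in 34 of the 57 members (59.6%), and in 69.3% of symbols. Each match is a description of letters in the window, and a long array of pairs contains shorter ones. Tested members with and without a pair lay close together: with GelMA-PSS over GelMA, the median log2 ratio was 0.15 for the 14 with a pair and 0.13 for the 36 without, and with GelMA-PSS over TCP the medians were 0.18 and 0.02.

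Hspb1 and Cryab were the most abundant small heat shock proteins of muscle, and Hspb1 had the highest ratio of the 7 in both GelMA-PSS comparisons. Hspb1 encodes Hsp27, a heat-inducible chaperone of actin and intermediate filaments, and Cryab encodes alpha B-crystallin, the chief chaperone of desmin. Hspb1 measured 604 CPM on TCP, 547 on GelMA and 1031 on GelMA-PSS, after scaling of libraries by the trimmed mean of M values (TMM). GelMA-PSS was thus the highest library by a clear margin, 1.88-fold above GelMA (interval 1.86 to 1.90) and 1.71-fold above TCP (interval 1.69 to 1.72), while the 2 controls lay within 1.5-fold of each other. Cryab measured 705 CPM on TCP, 445 on GelMA and 565 on GelMA-PSS. TCP was the highest library for Cryab, and its level on GelMA was 0.632 of that on TCP (interval 0.624 to 0.639). Read within each library, which no scaling can alter, the counts of Cryab per count of Hspb1 went from 1.17 on TCP (interval 1.16 to 1.18) through 0.814 on GelMA (0.803 to 0.825) to 0.548 on GelMA-PSS (0.544 to 0.553). Because the Cryab transcript used is the longer, at 1117 bases beside 930, the same ratios per kilobase were 0.971, 0.678 and 0.457. By these lengths Hspb1 was the higher in every library, and by the least on the plate. The median lengths of the basic transcripts are 896 bases for Cryab and 916.5 for Hspb1, so the order on the plate rests on the length used.

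**Figure D1:**
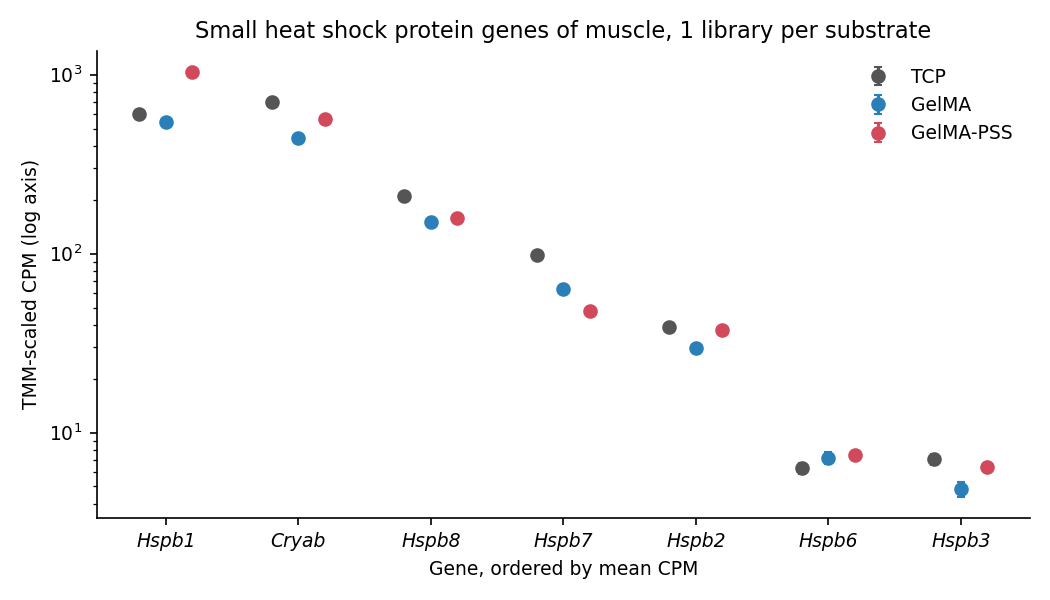
TMM-scaled CPM (log axis) of the 7 small heat shock protein genes of muscle in each library, with exact 95% counting intervals that are mostly smaller than the points. Hspb1 is highest on GelMA-PSS at 1031 CPM, while Cryab, Hspb8, Hspb7, Hspb2 and Hspb3 are highest on TCP.

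Hspb7 was the member that fell furthest from the plate to GelMA-PSS. It encodes a cardiovascular small heat shock protein that binds filamin C and is found in the body mainly in heart and skeletal muscle. Its level was 98.1 CPM on TCP, 63.5 on GelMA and 47.9 on GelMA-PSS. The 3 libraries thus stepped down in that order, and the GelMA-PSS level was 0.488 of the TCP level (interval 0.475 to 0.502) and 0.754 of the GelMA level (interval 0.730 to 0.780). Within libraries the counts of Hspb7 per count of Hspb1 were 0.162 on TCP, 0.116 on GelMA and 0.0465 on GelMA-PSS. Such a ratio is free of the scaling but not of transcript length, which is 2769 bases for Hspb7 and 930 for Hspb1. The log2 ratios of GelMA-PSS against GelMA were −0.40 for Hspb7 and 0.91 for Hspb1. Once length and GC content were corrected for, they were −0.40 and 0.51.

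Hspb8 works with Bag3 in the selective autophagy of strained Z-disc proteins. Hspb8 measured 210.2 CPM on TCP, 149.6 on GelMA and 157 on GelMA-PSS, and Bag3 measured 77.2, 61.5 and 62.3 CPM in the same order. As scaled, both genes were highest on the plate and nearly level on the hydrogels, with log2 ratios of GelMA-PSS against GelMA of 0.07 for Hspb8 and 0.02 for Bag3. Without scaling factors both were lowest on GelMA-PSS, at 148.2 CPM beside 156.2 on GelMA for Hspb8 and 58.7 beside 64.2 for Bag3. Once length and GC content were corrected for, the log2 ratios against GelMA were −0.19 for Hspb8 and −0.04 for Bag3. The counts of Hspb8 per count of Bag3 were 2.72 (interval 2.66 to 2.79) on TCP, 2.43 (2.36 to 2.51) on GelMA and 2.52 (2.47 to 2.58) on GelMA-PSS. The intervals of the hydrogels overlapped, and that of TCP lay above both.

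Hspb2 and Hspb3 form a muscle-specific complex with each other, and Hspb2 also binds the kinase Dmpk. Hspb2 measured 39.0 CPM on TCP, 29.6 on GelMA and 37.4 on GelMA-PSS. Hspb3 measured 7.10, 4.83 and 6.39 CPM in that order. As scaled, both therefore shared a low point on GelMA, with the plate and GelMA-PSS close together. Once length and GC content were corrected for, GelMA-PSS was below GelMA for both. The log2 ratios were then −0.17 for Hspb2 and −0.27 for Hspb3 against GelMA, and −0.48 and −0.66 against TCP. Hspb2 lies head to head with Cryab on chromosome 9, and the annotated exons of the pair share 252 bases on opposite strands. The counts of Cryab per count of Hspb2 were 18.1 on TCP, 15.0 on GelMA and 15.1 on GelMA-PSS, so the proportion of the neighbours was alike on the hydrogels and higher on the plate. The study describes strand-specific reads, but how strand entered the counting is not given in the sources used here, and reads of the shared bases may therefore be split between the neighbours. Hspb6 encodes Hsp20, a phosphoprotein of muscle relaxation, and was the scarcest of the 7 per unit length in every library. Hspb6 measured 6.31 CPM on TCP, 7.23 on GelMA and 7.47 on GelMA-PSS, and the intervals of the 2 hydrogels overlapped.

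Per kilobase of transcript, Hspb1 and Cryab made up most of the small heat shock protein RNA in every library. Hspb1 stood at 649.9 CPM per kb on TCP, 589 on GelMA and 1108 on GelMA-PSS, which was 43.4%, 51.5% and 62.3% of the summed level of the 7 genes. For Cryab the share was 42.2% on TCP, 34.9% on GelMA and 28.4% on GelMA-PSS. The plate thus held near-equal amounts of the pair and GelMA-PSS was dominated by Hspb1. Hspb8 came next at 7.74%, 7.21% and 4.86%, and each of the remaining 4 genes stayed under Hspb8 in every library. Together the 7 genes took 0.170% of all counts on TCP, 0.130% on GelMA and 0.175% on GelMA-PSS, before any scaling. Their summed level per kilobase was 1496.5 CPM per kb on TCP, 1142.4 on GelMA and 1780.3 on GelMA-PSS. These totals are not corrected for transcript length, and short transcripts read higher on GelMA-PSS in general. Once length and GC content were corrected for, 6 of the 7 lay below 0 on GelMA-PSS against TCP, with a median log2 ratio of −0.63.

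**Figure D2:**
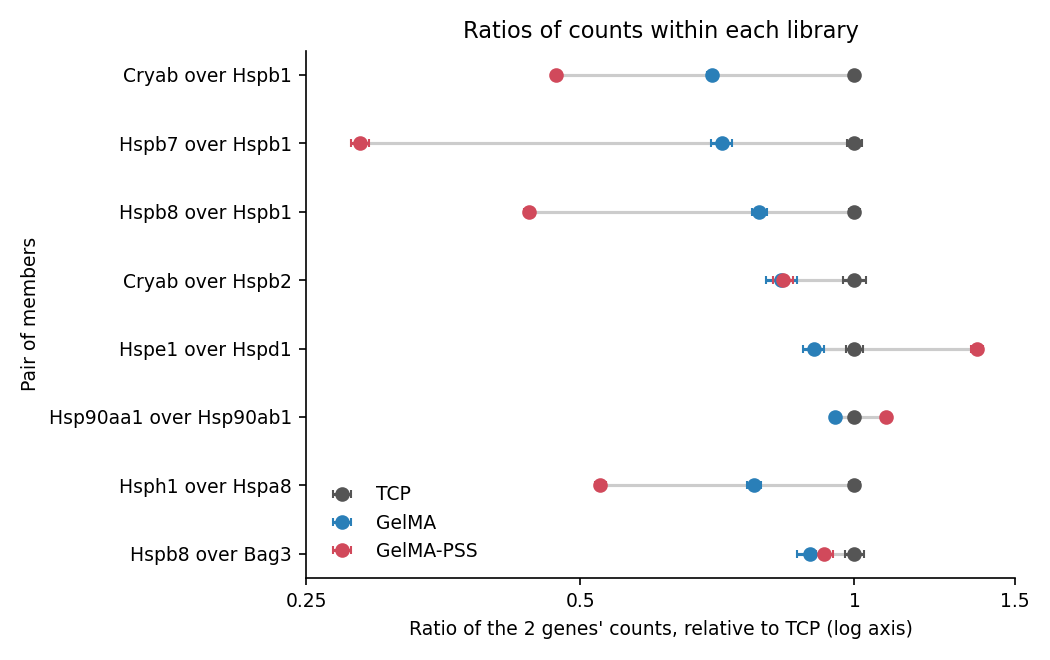
Ratio of the counts of 2 members within each library, relative to the same ratio on TCP (log axis), with exact 95% counting intervals. Cryab, Hspb7 and Hspb8 per count of Hspb1 and Hsph1 per count of Hspa8 are lowest on GelMA-PSS, while Hspe1 per count of Hspd1 is highest there. The ratios are not corrected for transcript length.

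Markers of myotubes moved with several of these genes. Of 10 myoblast and myotube markers, Mymk was not among the symbols counted. The other 9 were at 1 CPM or more in every library, and their summed level was 28647 CPM on TCP, 21712 on GelMA and 16462 on GelMA-PSS. The embryonic myosin gene Myh3 measured 10182 CPM on TCP, 6355 on GelMA and 3037 on GelMA-PSS, stepping down in the order seen for Hspb7. The lower sum on GelMA-PSS than on GelMA came from Myh3 and titin (Ttn), both long transcripts, and by ratio 5 of the 9 markers were above 0 against GelMA (median 0.13, and −0.11 once length and GC content were corrected for) and 2 of 9 against TCP. Corrected in the same way, Myh3 stayed lower on GelMA-PSS, at −0.62 against GelMA and −1.42 against TCP. Ttn, assigned an extreme length of 106824 bases, was then at 0.22 and −0.75. The markers above 0 against TCP were the myoblast factors Myf5, at 13.9 CPM on TCP, 19.5 on GelMA and 36.5 on GelMA-PSS, and Myod1, at 94.3, 104.6 and 119.2 CPM. Desmin (Des), which Cryab protects, measured 3299, 2863 and 3154 CPM, and Myog measured 1100, 895 and 1037 CPM. Both had the low point on GelMA that Cryab, Hspb2 and Hspb3 showed before that correction. After it, the log2 ratio of GelMA-PSS against GelMA was below 0 for Cryab (−0.11), Hspb2 (−0.17), Hspb3 (−0.27) and Myog (−0.11). For Des it was 0.17. The part of these markers in the small heat shock protein values was not tested, and in bulk RNA fewer cells of a type and less RNA per cell cannot be told apart. The defining markers of endothelial cells and adipocytes (4 each) were all under 1 CPM. Among 4 leukocyte genes Cd68 reached 1 CPM, with Ptprc and Cd3e at 0 in both controls, and among 4 epithelial genes Cdh1 did, with Krt18 at 0 on TCP and GelMA-PSS.

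Set against the rest of the family, the small heat shock proteins of muscle stood lower on GelMA than on TCP. Their median log2 ratio of GelMA against TCP was −0.47, against −0.13 over the 57 other members and −0.01 over all 13169 genes tested, a difference between the 2 groups of −0.34. In this comparison 6 of the 7 were below 0, Hspb6 being the exception, and Cryab and Hspb7 were the 2 members lower by over 1.5-fold, a size passed by 2.12% of all genes. No member was higher by over 1.5-fold (3.50% of all genes), and none passed 2-fold in either direction, where 0.706% of all genes were higher and 0.296% lower. TCP held the highest level of 5 of the 7 small heat shock proteins and of 19 of the 57 other members.

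For GelMA-PSS against TCP the median was −0.13 over the small heat shock proteins, 0.09 over the other members and 0.04 over all genes. Without scaling factors the median over the other members lay just on the other side of 0, at −0.01, and that of all genes was −0.06. At 2-fold, 1 member (Hspb11) was higher, where 3.72% of all genes were, and 1 (Hspb7) was lower, where 3.13% were. At 1.5-fold, 3 members were higher (Hspb1, Hspb11 and Hspe1) against 13.2% of all genes, and 4 were lower (Dnaja4, Dnajc16, Hspb7 and Hsph1) against 11.5%. These are 4.69% and 6.25% of the 64 tested members, each below the share of all genes.

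For GelMA-PSS against GelMA the median was 0.33 over the small heat shock proteins, 0.17 over the other members and 0.03 over all genes. Hspb11 was again the only member higher by over 2-fold, where 1.77% of all genes were, and no member was lower, where 2.33% were. At 1.5-fold, 7 members (10.9%) were higher, namely Dnajc4, Dnajc9, Dnajc15, Dnajc17, Hspb1, Hspb11 and Hspe1, beside 11.0% of all genes, and 1 (Dnajc13) was lower, beside 10.8%. Taking both controls together, Hspb11 passed 2-fold above each (1.37% of all genes did) and none passed it below (1.16%). At 1.5-fold Hspb1, Hspb11 and Hspe1 were above both controls (8.08% of all genes) and none was below both (7.18%). In all, 51 of the 64 members (79.7%) stayed within 1.5-fold in all 3 comparisons, beside 67.7% of all genes.

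**Figure D3:**
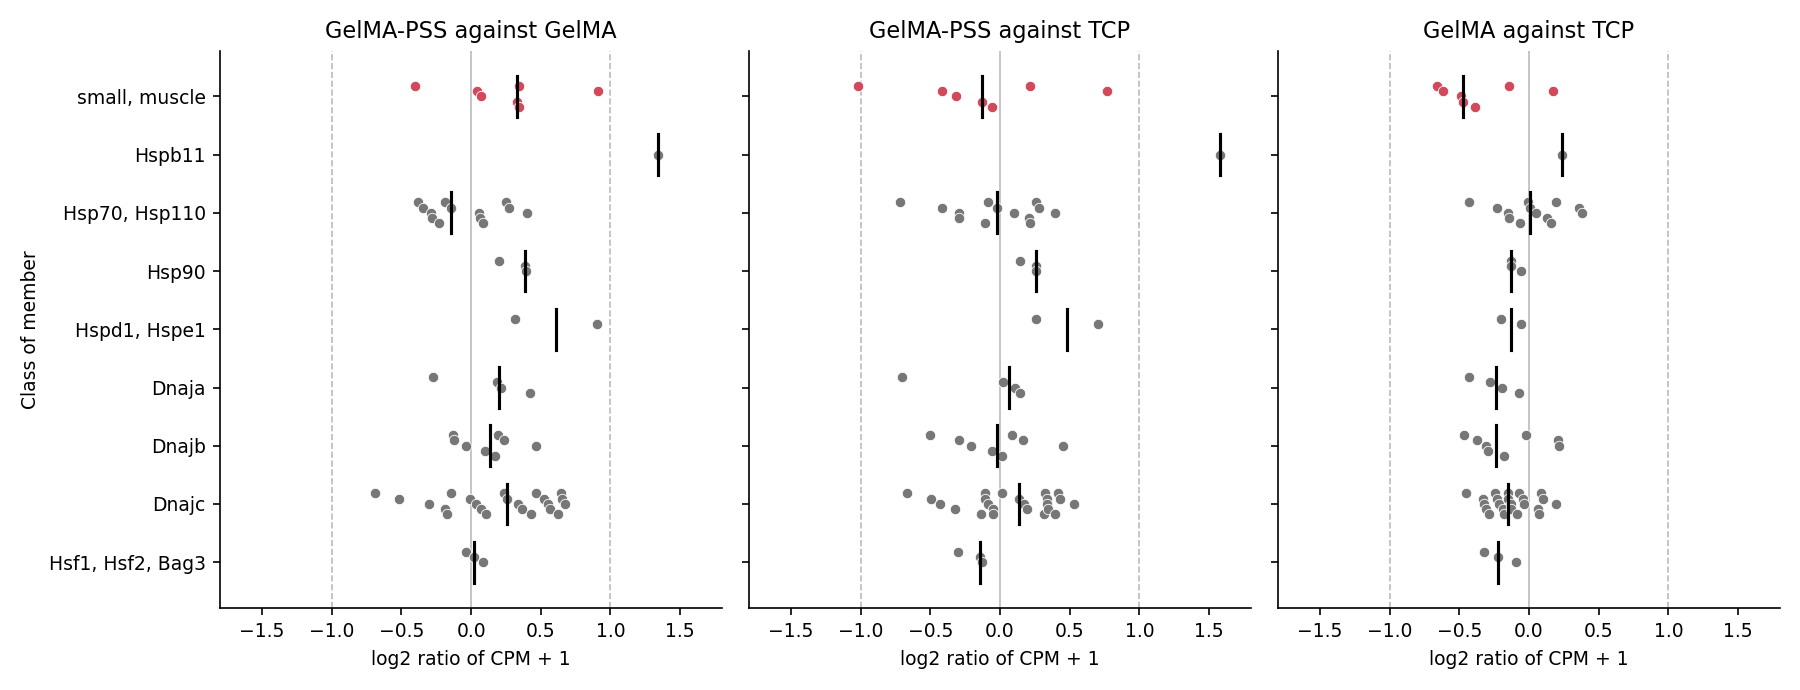
Log2 ratio of CPM + 1 for each of the 64 tested members by class, with the class median as a black bar, a solid line at 0 and dashed lines at 2-fold. Red points are the small heat shock proteins of muscle, which sit mostly below 0 for GelMA against TCP with a median of −0.47, and Hspb11 lies beyond the 2-fold line in both GelMA-PSS comparisons.

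Transcript length must be read beside every GelMA-PSS ratio. Across all genes tested with a length, the log2 ratio of GelMA-PSS against GelMA had a Spearman correlation of −0.672 with transcript length (n = 13059 genes, which share the same 2 libraries), and over the 64 members it was −0.669. With TCP as the control the values for GelMA-PSS were −0.517 and −0.419, and those for GelMA were 0.208 and 0.329. Short transcripts thus read higher on GelMA-PSS in general: the shortest of 20 length bins, with a median of 657 bases, lay at a median of 0.63 on the log2 scale over GelMA, and the longest, with a median of 9747 bases, had −0.78. The small heat shock proteins are short, with a median transcript of 1117 bases beside 2967 for the other members and 3067 for all genes. What gave rise to this relation was not tested.

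**Figure D4:**
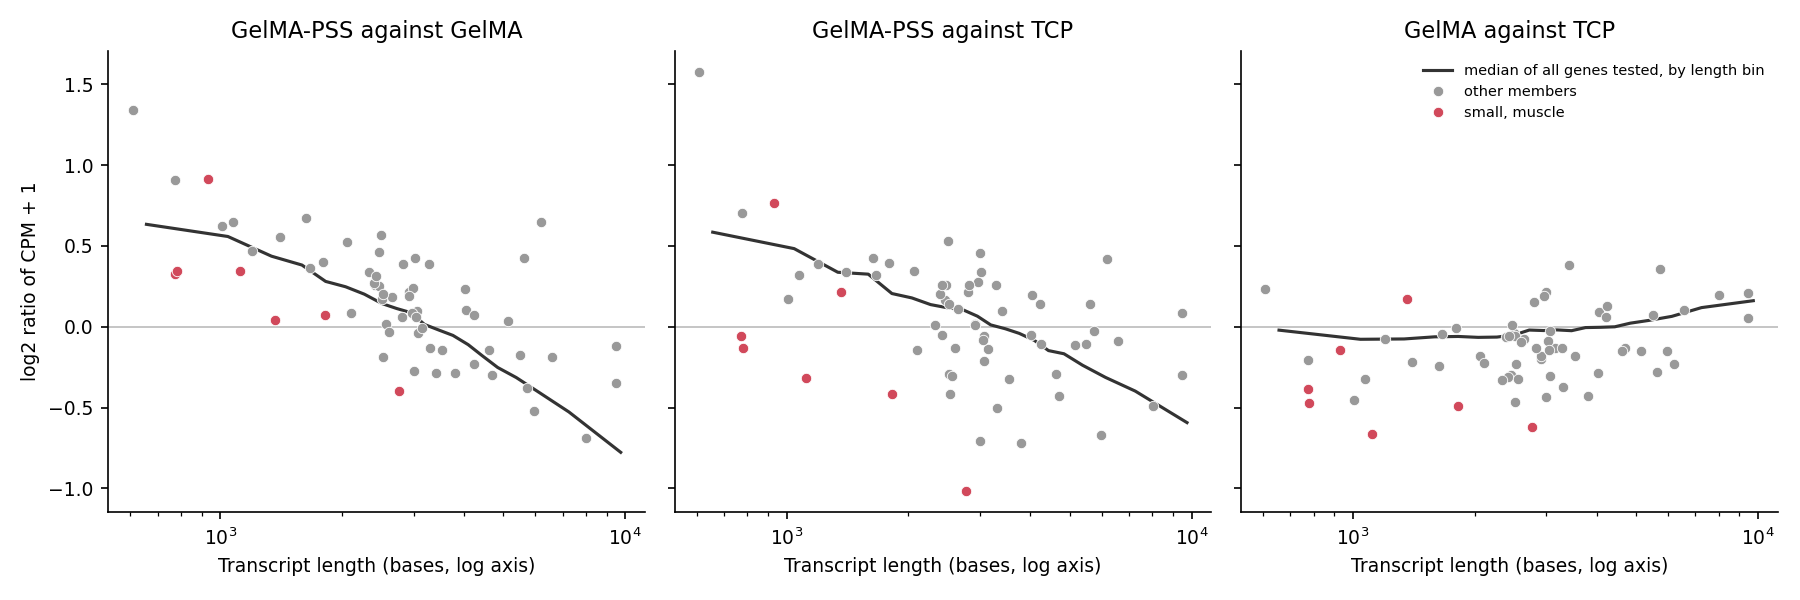
Log2 ratio of CPM + 1 against transcript length (bases, log axis) for the small heat shock proteins of muscle (red) and the other tested members (grey), with the median of all genes in 20 length bins as a line. In both GelMA-PSS panels the line falls from short to long transcripts, and 6 of the 7 red points lie under it, Hspb1 being the exception.

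A smooth curve on transcript length and then on GC content was subtracted from all ratios to see what remained. Against GelMA, the median of the small heat shock proteins went from 0.33 to −0.19, that of the other members from 0.17 to 0.10, and 6 of the 7 small proteins were then below 0. Against TCP the corrected medians were −0.63 and 0.01, a difference of −0.64, again with 6 of 7 below 0. The comparison of GelMA with TCP hardly moved, with corrected medians of −0.43 and −0.13. Hspb1 was the small heat shock protein that stayed above 0 in both GelMA-PSS comparisons, where it was 0.51 over GelMA and 0.45 over TCP on the corrected log2 scale. Hspb7, whose transcript of 2769 bases is near the middle of all genes, stayed at −0.40 and −1.03, and Cryab went from 0.34 to −0.11 against GelMA and from −0.32 to −0.70 against TCP. After the correction 6 of the 64 members lay lower on GelMA-PSS than on TCP by over 1.5-fold. These were Dnaja4, Hsph1 and Hspb7, as before it, and Cryab, Hspb3 and Hspb8. The share of all genes past that size was counted before the correction only, so these 6 have no share to be read against. Hspb1 no longer passed that size above either control.

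**Figure D5:**
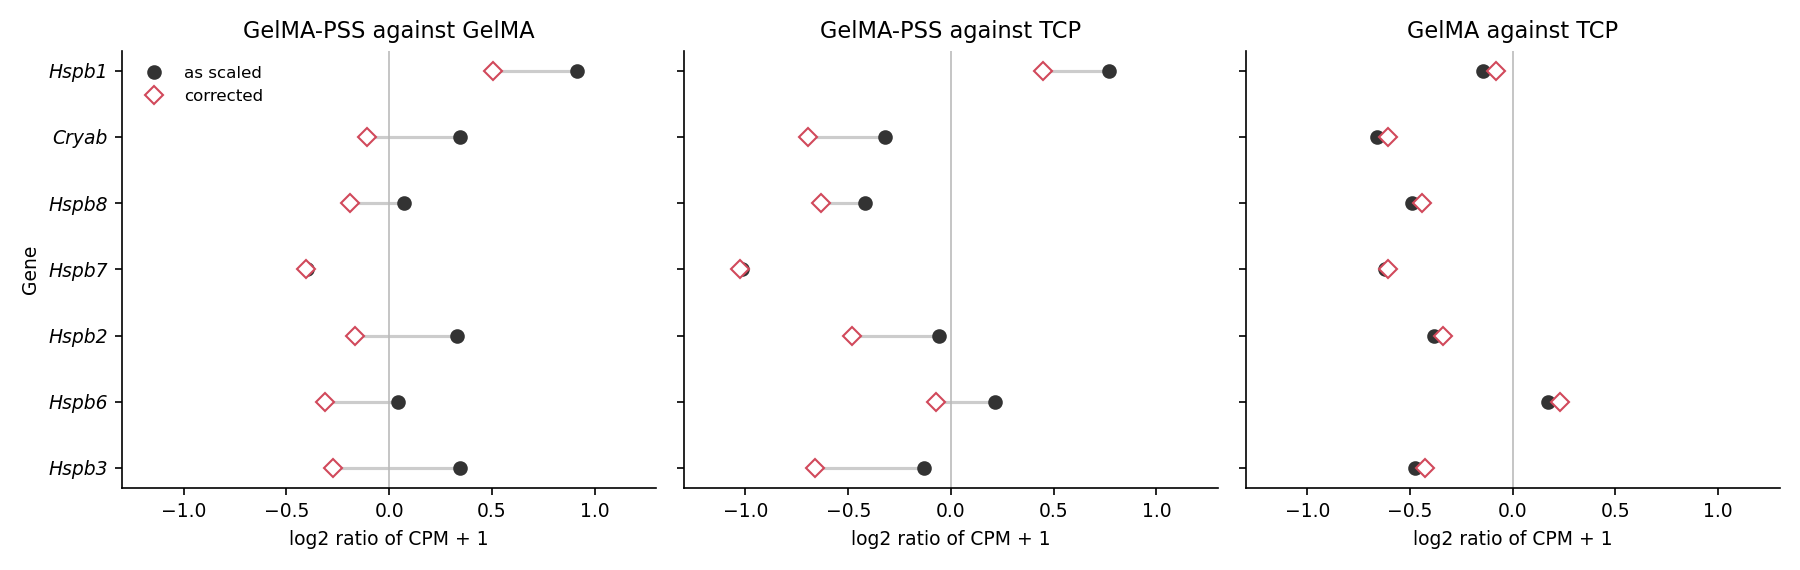
Log2 ratio of CPM + 1 of the 7 small heat shock protein genes before (filled) and after (open) the length and GC correction, in the 3 comparisons. Hspb1 stays on the right of 0 in both GelMA-PSS panels, at 0.51 and 0.45 after the correction, and Hspb7 does not move visibly.

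Hspb11 carried the largest ratio of the family. Despite its symbol it encodes Ift25, a subunit of the intraflagellar transport complex of cilia. It measured 12.1 CPM on TCP, 14.5 on GelMA and 38.2 on GelMA-PSS. The GelMA-PSS library stood far above both controls, 2.64-fold over GelMA (interval 2.49 to 2.81) and 3.15-fold over TCP (interval 2.98 to 3.34). Its transcript of 608 bases is the shortest in the family, and correcting for length and GC content took its log2 ratios from 1.34 to 0.55 and from 1.58 to 0.89.

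The mitochondrial chaperonin pair shared a promoter but not a ratio. Hspd1 (Hsp60) forms the folding chamber and Hspe1 (Hsp10) its lid. Hspe1 measured 109 CPM on TCP, 94.5 on GelMA and 178 on GelMA-PSS, and Hspd1 measured 192, 185 and 230.4 CPM in that order. Both were highest on GelMA-PSS, Hspe1 by 1.88-fold and Hspd1 by 1.25-fold over GelMA. The counts of Hspe1 per count of Hspd1 were 0.567 on TCP (interval 0.555 to 0.579), 0.511 on GelMA (0.498 to 0.525) and 0.773 on GelMA-PSS (0.761 to 0.784). The transcripts differ in length, 774 bases for Hspe1 and 2423 for Hspd1, and the corrected log2 ratios against GelMA were 0.29 and 0.10. The annotated exons of the pair share 112 bases on opposite strands.

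Hsp90 genes were all modestly higher on GelMA-PSS. Hsp90ab1, the constitutive cytosolic form, measured 2747 CPM on TCP, 2637 on GelMA and 3035 on GelMA-PSS. Its heat-inducible counterpart Hsp90aa1 measured 614, 561 and 735 CPM in that order. Hsp90b1, the form of the endoplasmic reticulum, measured 899, 821 and 1077 CPM. GelMA was the lowest library and GelMA-PSS the highest for all 3 genes, GelMA-PSS being above GelMA by 0.20 to 0.39 and above TCP by 0.14 to 0.26 on the log2 scale, all within 1.5-fold. This order also held without scaling factors. After the correction all 3 stayed above 0, with medians of 0.20 against GelMA and 0.10 against TCP. Hsp90ab1 was then nearly level, at 0.05 and 0.03.

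Hsp70 genes divided by member. Hspa8 (Hsc70), the constitutive form and the member with the highest CPM per kb, measured 2762 CPM on TCP, 2641 on GelMA and 3185 on GelMA-PSS. Mitochondrial Hspa9 (mortalin) measured 670.0, 605 and 632 CPM, and Hspa4, a cytosolic relative of Hsp110, measured 349, 314 and 284.5 CPM. Hspa8 was thus highest on GelMA-PSS, and Hspa9 and Hspa4 on TCP. The strictly heat-inducible Hspa1a measured 20.2, 23.2 and 24.7 CPM and Hspa1b 30.4, 34.0 and 35.4 CPM; both were low on every substrate, and because the pair is nearly identical in sequence the split between them is uncertain. Over the 13 Hsp70 and Hsp110 genes GelMA-PSS had a median log2 ratio of −0.14 with GelMA as the control and −0.02 with TCP, and GelMA had 0.01 over TCP. The first of these medians was −0.29 without scaling factors, where that of all genes was −0.10. After the correction the first turned to 0.01 and the second to 0.12.

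Hsph1 was the Hsp70-class member that passed 1.5-fold. It encodes Hsp110, which exchanges the nucleotide of Hsp70 and is heat-inducible. Hsph1 measured 176 CPM on TCP, 130.5 on GelMA and 107 on GelMA-PSS, a stepwise order like that of Hspb7. The GelMA-PSS level was 0.606 of that on TCP (interval 0.594 to 0.618), and the log2 ratio of −0.72 was −0.69 after the correction. Per count of Hspa8, Hsph1 had 0.0637 counts on TCP, 0.0494 on GelMA and 0.0335 on GelMA-PSS. Hsph1 has the longer transcript, 3802 bases beside 2394. The log2 ratios of GelMA-PSS against GelMA were −0.29 for Hsph1 and 0.27 for Hspa8, and −0.26 and 0.10 after the correction.

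J-domain genes, 35 of the 64 tested members, were as a group a little above GelMA on GelMA-PSS (median log2 ratio 0.19, 0.05 without scaling factors), near TCP on GelMA-PSS (0.02, turning to −0.09 without scaling factors) and below TCP on GelMA (−0.18). Without scaling factors the medians of all genes were −0.10 and −0.06 in the first 2 of these comparisons. After the correction the first of the J-domain medians was 0.14 and the second turned to −0.04. GelMA held the lowest level for 21 of the 35, and for 18 without scaling factors. None passed 2-fold in any comparison. Dnaja1, a main Hsp70 partner of the cytosol, measured 317 CPM on TCP, 260.5 on GelMA and 350.4 on GelMA-PSS. Dnaja2, its close relative, measured 258, 225 and 262 CPM, and the mitochondrial Dnaja3 measured 57.6, 54.7 and 62.2 CPM. GelMA was lowest for all 3, with GelMA-PSS slightly above TCP, an order that turned for Dnaja2 without scaling factors. Dnaja1 is assigned a transcript of 5622 bases, and its corrected log2 ratio against GelMA of 0.64, up from 0.43, rests on that length.

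Among the Dnajb genes, Dnajb6 suppresses protein aggregation and is mutated in a limb-girdle muscular dystrophy. It measured 228.5 CPM on TCP, 201 on GelMA and 230.2 on GelMA-PSS. Dnajb11, a partner of the endoplasmic reticulum Hsp70, measured 157, 113 and 128 CPM, and the membrane-bound Dnajb12 measured 61.3, 60.4 and 58.8 CPM. Dnajb11 was highest on the plate, and Dnajb6 and Dnajb12 each varied little. Dnajb1, the classical heat-inducible Hsp40, was named after its values were seen: it measured 44.0 CPM on TCP, 51.4 on GelMA and 60.7 on GelMA-PSS, a log2 ratio of 0.45 against TCP that is 0.41 after the correction.

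Dnajc proteins share the J domain but otherwise differ in structure and place in the cell. Dnajc7, which links Hsp70 and Hsp90, measured 238 CPM on TCP, 189.6 on GelMA and 240.2 on GelMA-PSS. Dnajc10, a disulfide reductase of the endoplasmic reticulum, measured 141, 150.3 and 162 CPM, and Dnajc8, found with splicing factors, measured 141, 121 and 178 CPM. GelMA-PSS was highest for Dnajc8 with and without scaling factors. For Dnajc7 the intervals of GelMA-PSS and TCP overlapped, and without scaling factors TCP was the highest for Dnajc7 and GelMA for Dnajc10. Dnajc13 (Rme-8), which acts in endosomal sorting, measured 96.8 CPM on TCP, 111 on GelMA and 68.5 on GelMA-PSS, and Dnajc16 measured 47.6, 42.8 and 29.5 CPM. Both were lowest on GelMA-PSS, and both have long transcripts of 8012 and 5969 bases. The log2 ratio of Dnajc13 against GelMA went from −0.69 to −0.15 on correction, and that of Dnajc16 against TCP from −0.67 to −0.38.

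The remaining members past 1.5-fold were named after their values were seen. Dnajc15, of the mitochondrial inner membrane, measured 42.4 CPM on TCP, 36.0 on GelMA and 57.1 on GelMA-PSS, and Dnajc9, a histone chaperone, measured 27.5, 23.1 and 37.3 CPM. Dnajc17 measured 19.7, 14.1 and 22.4 CPM, and Dnajc4 measured 13.1, 10.2 and 16.6 CPM. As scaled, all 4 were lowest on GelMA and highest on GelMA-PSS, 1.58 to 1.62-fold above GelMA. Dnajc9, Dnajc17 and Dnajc4 have short transcripts of 1008 to 1631 bases and corrected log2 ratios against GelMA of 0.14 to 0.29. Against TCP the corrected ratios were 0.12 for Dnajc9, −0.24 for Dnajc17 and −0.03 for Dnajc4. Dnajc15 is assigned 6193 bases, and its ratio of 0.65 against GelMA became 0.97. Dnaja4 went the other way, at 30.7 CPM on TCP, 22.5 on GelMA and 18.4 on GelMA-PSS, with a log2 ratio against TCP of −0.71 that was −0.76 after the correction. Its annotated exons share 1581 bases with Wdr61 on the opposite strand.

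The transcription factors of the family varied little. Hsf1, the main heat shock factor, measured 81.7 CPM on TCP, 69.8 on GelMA and 74.0 on GelMA-PSS. Hsf2, its relative of development and differentiation, measured 40.8, 38.1 and 37.2 CPM. Both were highest on TCP, and their log2 ratios ran from −0.22 to 0.08 over the 3 comparisons. RNA levels do not report the activity of Hsf1, which is set mainly after translation.

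A list of 20 genes known as heat-inducible targets of Hsf1, 14 of them members, held members that moved in both directions. Its medians on the log2 scale were 0.23 (GelMA-PSS over GelMA), 0.14 (GelMA-PSS over TCP) and −0.12 (GelMA over TCP), beside 0.03, 0.04 and −0.01 for all genes. The first 2 were 0.080 and 0.035 without scaling factors, where those of all genes were −0.10 and −0.06. After the correction the list medians were 0.10 and 0.086, beside −0.0012 and −0.0023 for all genes. The number above 0 against GelMA was 17 of 20 with scaling factors and 12 without. Hspb1 and Hspe1 were higher by over 1.5-fold against both controls, Hsph1 was lower against TCP and Cryab was lower on GelMA than on TCP. None of the 20 passed 2-fold.

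The cytosolic chaperonin TRiC and its partner prefoldin, which fold actin and tubulin, were all higher on GelMA-PSS. All 14 genes had log2 ratios above 0 against both controls, with and without scaling factors, and the medians were 0.42 against GelMA and 0.38 against TCP. At 1.5-fold 5 rose against GelMA (Pfdn1, Vbp1, Pfdn4, Pfdn5 and Pfdn6), where 11.0% of all genes did, and 3 against TCP (Pfdn1, Pfdn4 and Pfdn5), where 13.2% did. Pfdn5 measured 222 CPM on TCP, 216 on GelMA and 416.5 on GelMA-PSS. Once corrected for length and GC content the medians were 0.16 and 0.14, with 13 and 12 of the 14 above 0, and none of the 5 genes named stayed past 1.5-fold, the highest being Pfdn1 at 0.52 against GelMA and Pfdn5 at 0.51 against TCP.

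Cochaperones of Hsp70 and Hsp90 outside the family had 22 of 23 listed genes tested, Hikeshi not being among the symbols counted. On GelMA-PSS their medians were 0.23 against GelMA and 0.09 against TCP. These were 0.091 and −0.01 without scaling factors, where those of all genes were −0.10 and −0.06. After the correction the cochaperone medians were 0.024 and −0.058. Unc45b, the Hsp90 cochaperone that folds muscle myosin, measured 236 CPM on TCP, 161.5 on GelMA and 107 on GelMA-PSS. Smyd1, a muscle methyltransferase that works with it, measured 151, 126 and 99.7 CPM. Both stepped down from the plate to GelMA-PSS in the order of Hspb7, Hsph1 and Myh3. Unc45b alone of the list fell by over 2-fold against TCP, as 3.13% of all genes did. Its log2 ratio there went from −1.13 to −0.99 on correction, short of 2-fold, and that of Smyd1 from −0.59 to −0.60. Sugt1, which joins Hsp90 to ubiquitin ligases, measured 85.3, 87.3 and 142 CPM. It rose by over 1.5-fold against both controls, as 8.08% of all genes did. Sugt1 is assigned a transcript of 7392 bases. Its corrected values, 1.11 over GelMA (up from 0.69) and 1.03 over TCP (up from 0.73), rest on that length.

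Clients and partners of the muscle small heat shock proteins were lower on GelMA-PSS than on TCP in 6 of 6 listed genes. Of all 13169 genes tested, 6210 were lower on GelMA-PSS than on TCP. Flnc (filamin C), which Hspb7 binds, measured 1394 CPM on TCP, 1265 on GelMA and 621 on GelMA-PSS. Titin (Ttn) measured 3073, 2808 and 522 CPM. Dmpk, the partner of Hspb2, measured 646, 501 and 395 CPM. Flnc and Ttn fell by over 2-fold against both controls, as 1.16% of all genes did. Both transcripts are, however, among the longest, and the corrected log2 ratios against GelMA were −0.21 for Flnc and 0.22 for Ttn. Against TCP the corrected values were −0.56 and −0.75, and Dmpk, with a transcript of 2761 bases, went from −0.71 to −0.65. Ttn is assigned 106824 bases, beside a median of 9747 in the longest length bin. Its corrected values rest on the far end of the fitted curve, which also took its GelMA against TCP ratio from −0.13 to −0.53. The 3 endoplasmic reticulum chaperones left out of the family had medians of 0.16 against GelMA and −0.01 against TCP, none past 1.5-fold. The first was 0.013 without scaling factors, beside −0.10 for all genes, and −0.048 after the correction.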

How the data were processed

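What the authors deposited are raw, unnormalized counts, summed by gene symbol, of the 3 libraries. The study's methods describe strand-specific paired-end reads from a TruSeq kit, whereas the labels name a SMARTER kit. The submitters' processing notes name TopHat, edgeR, mm10 and hg19 without giving roles, and the counting tool and annotation are not given in the sources used here. The study called genes from FPKM, which were not used here.

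Counts were scaled to CPM with TMM factors of all 3 libraries (edgeR 4.0.16): TCP 1.016, GelMA 1.044, GelMA-PSS 0.943. Ratios are differences of log2(CPM + 1), which understate changes of low genes, while folds are ratios of CPM without the added 1. Genes under 1 CPM in all libraries were left out, leaving 13169. The fold thresholds are 2 and 1.5. Fold intervals and CPM intervals are exact (binomial and Poisson). With 1 library per group, no test was run. Lengths and GC contents are those of each gene's basic transcript with the longest coding sequence in GENCODE vM21 (GRCm38); 365 of 23238 symbols had no match. The correction subtracted loess fits (span 0.3). Ratio and correction steps were tested on simulated data. Alternatives changed the scaling (median-of-ratios size factors from DESeq2 1.42.0, or none), pseudocount, filter, threshold and correction.

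Genes named are the 7 small heat shock proteins, Hsf1, Hsf2, Bag3, 4 Hsp90 and chaperonin genes, members past 2-fold, the 3 most abundant of each Hsp70 and Dnaj class and the 3 largest increases and decreases; others were named after their values were seen. Members and lists were chosen with earlier results of these data known.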

Additional observations from a re-analysis of the deposited data

How the results depend on the processing

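All values here rest on 1 library per substrate, so the spread between cultures is unknown and counting error is the least error possible. No paired analysis was possible because each group has 1 library. Values are log2 ratios unless said otherwise, and the cause of each move was not tested except where the alternative changes the genes or threshold used.

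Omitting the scaling factors shifted the median of all genes for GelMA-PSS against GelMA from 0.03 to −0.10. With it, the median over the small heat shock proteins of muscle was 0.19 (0.1850) and over the other members 0.03 (0.0271); for GelMA-PSS against TCP the other members turned from 0.09 to −0.01 (−0.0118), and for GelMA against TCP they were −0.09 (−0.0935). A pseudocount of 5 gave 0.21 for the small proteins against GelMA and 0.069 for their difference from the others, and 0 members lower by 2-fold against TCP. Dropping the filter put the other members at 0.085 and the difference at 0.24 against GelMA, and the other members at −0.09 (−0.0880) for GelMA against TCP. A minimum of 10 CPM, which leaves out Hspb3 and Hspb6, gave −0.32 for the small proteins on GelMA-PSS against TCP. Without J-domain genes the other members were at 0.073 for GelMA-PSS against GelMA and −0.062 for GelMA against TCP.

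The length and GC correction reversed the sign for GelMA-PSS against GelMA, with −0.19 (−0.1926) for the small proteins, 0.10 for the others and −0.29 for the difference. Against TCP it gave −0.63 and a difference of −0.64, and 0 members higher by 2-fold in any GelMA-PSS comparison. With the median length of the basic transcripts, an alternative added after the data were seen, these were −0.19 (−0.1947), 0.11, −0.31, −0.58 and −0.60, with 0 members past 2-fold in either direction against TCP and 0 higher than both controls. At a threshold of 1.5 in place of 2 the members counted were 7 higher and 1 lower (GelMA-PSS against GelMA), 3 and 4 (against TCP), 2 lower (GelMA against TCP) and 3 higher than both. Of 17 ratios past 1.5-fold among the named genes, 5 lost that size without scaling factors, 10 under the correction and 2 with a pseudocount of 5; 0 did with median-of-ratios factors. A further 2 ratios gained it without scaling factors and 5 under the correction, and over the 35 named genes 10 and 16 ratios changed sign.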
